A study of Mus musculus with 23 samples.

Results

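The receptors that share the common gamma chain were examined in lymph node (LN) and spleen of mice carrying a change of 1 tyrosine in the transcription factor STAT5B, to phenylalanine (Y665F) or histidine (Y665H). The family was taken as 7 genes, found by symbol among the 32285 genes of the expression matrices. Il2rg encodes the common gamma chain itself. Il2rb encodes the beta chain that receptors for IL-2 and IL-15 share. Il2ra, Il15ra, Il7r, Il4ra and Il21r encode the chains that give a receptor its ligand. Counts of unique molecular identifiers (UMIs), which stand for single captured RNA molecules, were summed in each library over cells gated by marker genes, and genotypes were compared within a tissue.

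All mice are labelled C57BL/6 and were 2 months old, and the lines were made in C57BL/6N. In LN, 2 libraries came from wild-type (WT) mice, 3 from heterozygous Stat5b Y665F mice (het) and 2 from homozygous Stat5b Y665F mice (homo). In spleen, WT, Stat5b Y665H and Stat5b Y665F gave 1 library each, for which CD45+ cells of several mice were combined, and the labels do not give zygosity there. Y665F had been introduced into zygotes with Cas9 and a donor oligonucleotide and Y665H by base editing, so the change is in the germline and no cell type is targeted. Nothing in the labels says that LN replicates came from separate animals, so p-values measure the spread between these libraries.

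A cytokine of this family brings its own receptor chain together with the common gamma chain, and the kinases JAK1 and JAK3 bound to these chains then phosphorylate STAT proteins. IL-2, IL-7 and IL-15 act largely through STAT5, IL-4 through STAT6 and IL-21 largely through STAT3. In lymphoid tissue, IL-7 maintains naive T cells, IL-15 maintains memory CD8 T cells and natural killer (NK) cells, and IL-2 sustains regulatory T cells (Tregs), which carry the alpha chain at a high level. Activated STAT5 also induces Cish and genes of the Socs family, whose products dampen the same receptors.

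On the GRCm38 genome, 4 members lie in neighbouring pairs. Il2ra (chr2:11642807-11693193, + strand) ends 12096 bases before Il15ra (chr2:11705290-11734317, + strand), and Il4ra (chr7:125552120-125579474, + strand) ends 23954 bases before Il21r (chr7:125603429-125633570, + strand). Il2rb (chr15:78479256-78495271, - strand) and Il7r (chr15:9505788-9530176, - strand) share chromosome 15 but lie far apart, and Il2rg (chrX:101264378-101268255, - strand) is on the X chromosome. The antisense gene Gm44876 overlaps Il4ra and has a row of its own in the matrices. Another gene model, Gm20489, overlaps Il2rg on its own strand, and Gm37881 overlaps Il2ra. Neither of the last pair has a row of its own.

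The STAT recognition motif TTCNNNGAA, whose spacing reads alike on both strands, was looked for in promoter windows of RefSeq, which run from 250 bases before to 50 bases after a start site (GRCm38.p6). Windows were given for 6 members, Il15ra having 2 of them, and Il2rb had no entry. Of these 7 windows 1 held the motif, that of Il7r, against 8.30% of all 32851 windows. The match is shown because it is the only one among the members, with the motif in capitals, at chr15:9530000-9530028 on the - strand, 142 bases before the start site of this RefSeq entry. That start lies inside the annotated span of the gene given above, so by that annotation the match is within Il7r.
Il7r: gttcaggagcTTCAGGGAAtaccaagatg
A match describes these letters and not a bound site, and its absence from a window says nothing about STAT binding elsewhere in the gene.

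LN libraries held between 2621583 and 16101373 UMIs and spleen libraries between 36889328 and 47206322. Het replicate 3 and homo replicate 1 stood apart in depth. Their kept barcodes had medians of 410.0 and 436 UMIs, against 874 to 3119 in the other LN libraries, and 95.5% and 94.99% of them had fewer than 500 genes. The gates for T, B and NK cells held 45.3% and 46.0% of the kept barcodes of this pair and 79.7% to 96.1% in the other LN libraries. No pair of libraries shared more than 91 cell barcodes, at most 1.56% of a library. In the LN T gate the B list of 8 genes summed to 10.3 to 23.8 counts for every 1000000 UMIs of the gate (CPM), the neutrophil list of 7 genes to at most 0.449 CPM and the myeloid list of 7 genes to at most 2.62 CPM. Called below means a Benjamini-Hochberg adjusted p under 0.05 in the edgeR quasi-likelihood test over all genes of that gate.

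Across the cell classes of LN the members had distinct patterns, described here without a test as the lowest, median and highest CPM of the 7 libraries. The plot of member levels by gate shows them for each library. Levels are compared between classes for 1 gene and not between genes. A gate of few cells, such as NK with 5 to 31 cells a library, gives a wide range.

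**Figure D1:**
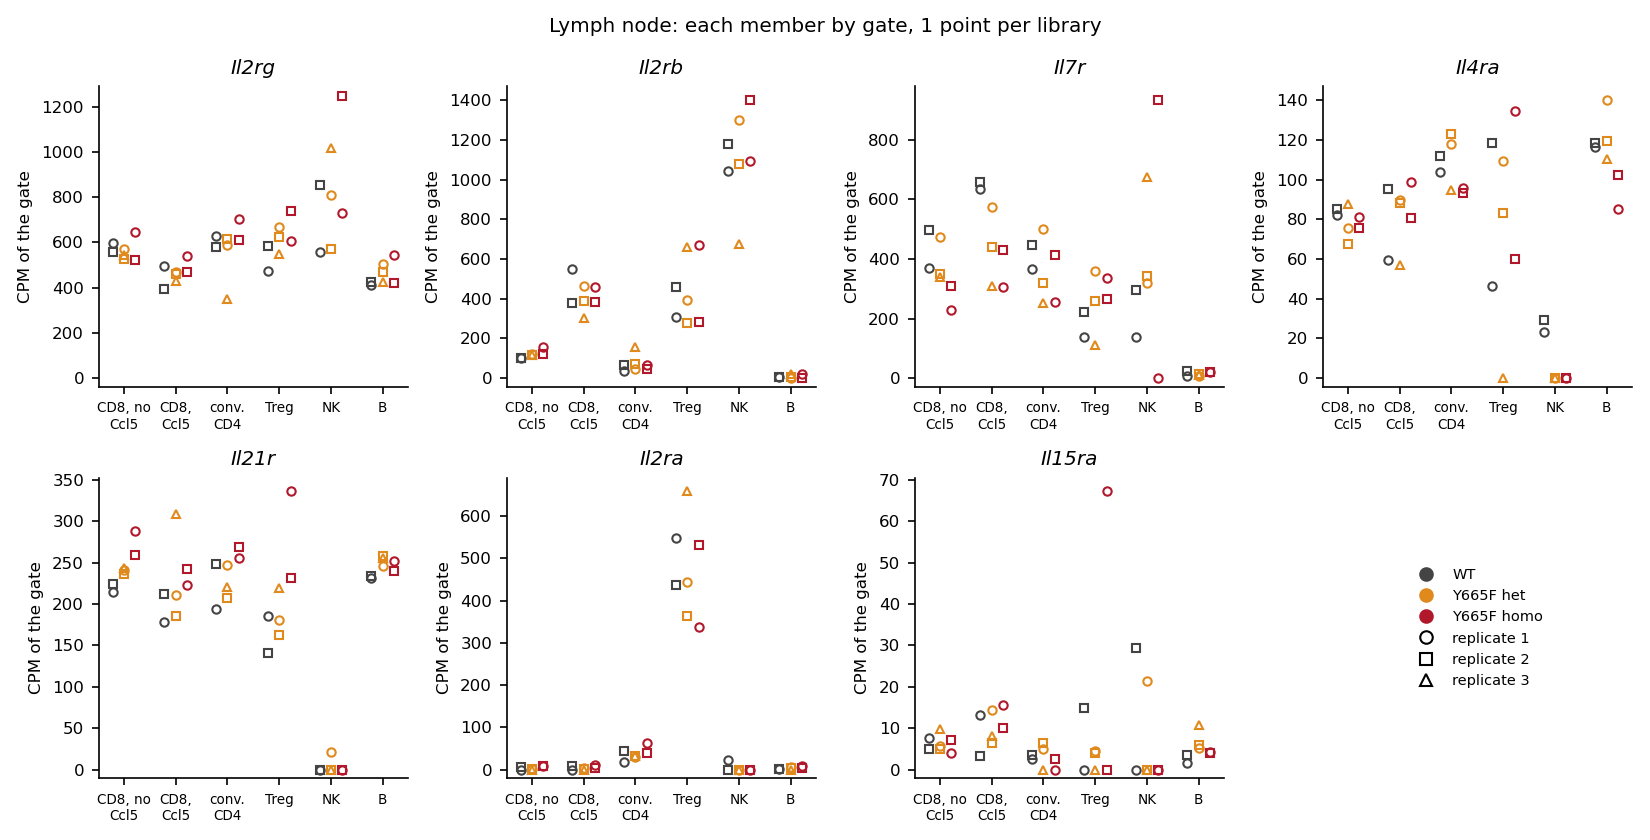
Level of each of the 7 members (CPM of the gate, linear axis from 0) in the gated classes of LN, with 1 point per library, the colour giving genotype and the shape the replicate. Il2ra stands highest in the Foxp3 Treg gate, Il2rb in NK cells, and Il7r is lower in B cells than in all T cell classes. Il2rg lies between 347 and 1246 CPM in every gate.

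Il2rg, the shared chain, was seen in every class. It ran from 412 to 542 CPM in B cells (median 423) and from 393 to 539 CPM in CD8 T cells with a Ccl5 UMI (median 469). CD8 T cells without a Ccl5 UMI had a median of 558 CPM, Tregs 605 CPM, conventional CD4 T cells 609 CPM and NK cells 811 CPM. Each class overlapped its neighbour in this order. No class therefore stood apart from the next for the shared chain. Between classes further apart, NK cells (557 to 1246 CPM) lay above B cells and above CD8 T cells with Ccl5 without overlap.

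Il2rb was ordered by class. NK cells were highest, with 677 to 1402 CPM (median 1096), above Tregs with 277 to 673 CPM (median 393). CD8 T cells with Ccl5 (301 to 548 CPM, median 388) overlapped Tregs. CD8 T cells without Ccl5 (103 to 159 CPM, median 117) and conventional CD4 T cells (34.6 to 158 CPM, median 64.0) lay below both and overlapped each other. B cells were lowest, with a median of 3.93 CPM.

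Il2ra was held by Tregs, at 336 to 658 CPM (median 443). Conventional CD4 T cells followed without overlap, at 18.7 to 64.0 CPM (median 32.0). CD8 T cells, B cells and NK cells had medians of at most 2.76 CPM and overlapped each other. The Treg gate was 1.01% to 5.14% of T cells in LN yet gave 15.6% to 59.4% of all Il2ra UMIs of the T gate. In the shallow libraries the Treg gate rests on 16 and 26 cells, and the Il2ra values there on 6 and 5 UMIs.

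Il7r, the chain for IL-7, was high in all T cell classes and did not separate them. Its medians were 441 CPM in CD8 T cells with Ccl5, 365 in conventional CD4 T cells, 351 in CD8 T cells without Ccl5 and 257 in Tregs, with overlapping ranges. NK cells ran from 0 to 935 CPM, on at most 15 UMIs a library. B cells were below all T cell classes, at 7.86 to 23.0 CPM.

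Il4ra, the chain for IL-4, had its highest median in B cells (117 CPM, range 85.4 to 140.2). Conventional CD4 T cells (median 104 CPM), CD8 T cells with Ccl5 (88.4 CPM), Tregs (83.1 CPM) and CD8 T cells without Ccl5 (81.4 CPM) overlapped in order. Each class overlapped the next, but conventional CD4 T cells (93.1 to 123 CPM) lay above CD8 T cells without Ccl5 (67.3 to 87.7 CPM). NK cells had 2 Il4ra UMIs in all 7 libraries. Il21r, the chain for IL-21, had medians between 185 and 247 CPM in B cells and all T cell classes, each overlapping the next, and 1 UMI in NK cells. Il15ra, which presents IL-15, had medians of at most 9.95 CPM in every class, and all its classes overlapped.

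The genes whose levels followed each member most closely over these classes were named by Pearson correlation of log2(CPM + 1) over 34 sums of a library and a class, among 9424 genes. Only sums of at least 30 cells entered, which left out most sums of the small NK gate. The sums share libraries and depth, so the values are descriptions. Il2rb was followed most closely by AW112010 (r = 0.94), Ahnak (0.92) and Selplg (0.90). Il7r was followed by Saraf (0.96), Skap1 (0.96) and Emb (0.96), and Il21r by Jtb (0.97), Dlst (0.96) and Ikbkb (0.96). Il21r had 1 UMI in NK cells of all 7 libraries, and how far its values rest on that gate was not tested. For Il2ra the closest were Pkm (0.88), Tnfrsf4 (0.87), itself a known Treg surface receptor, and Ccng1 (0.85). Il4ra followed Iars (0.82), Cyb5r3 (0.81) and Map3k3 (0.81). The values for Il2rg were lower, with H2-K1 (0.78), Zbtb1 (0.78) and Atp10a (0.76).

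The first comparison asked which members differ between Y665F and WT LN T cells. Il2rb was the member that rose in the T gate, in both het and homo libraries, and the other 6 were not called. Il2rb was at 120.0 and 112 CPM in WT. Het libraries had 201, 156 and 168 CPM, and homo libraries 251 and 195 CPM. Every Y665F library was above both WT libraries, and het and homo overlapped. Of all genes 16.7% in homo and 8.4% in het were higher than WT without overlap. The log2 fold change of Il2rb was 0.98 in homo (SE 0.14, adjusted p = 0.00104, 2 homo against 2 WT libraries) and 0.69 in het (SE 0.13, adjusted p = 0.0120, 3 against 2) by edgeR. Of all 10325 genes tested in the T gate, 2.88% were called in homo and 1.09% in het, against 1 of 7 members in each. Over 19 alternative settings the homo value of Il2rb ran from 0.85 to 1.28 and was called in all 19 (adjusted p at most 0.0311). The het value ran from 0.54 to 0.99 with adjusted p up to 0.293, and the het call was lost without WT replicate 2 (log2 fold change 0.60, adjusted p = 0.293), without het replicate 1 (0.54, adjusted p = 0.115) and with each cell thinned to 300 UMIs (0.99, adjusted p = 0.127), leaving it called in 16 of 19. Markers of T cell subsets differed in the same gate. The CD8 list of 2 genes summed to 871 to 874 CPM in WT, 1057 to 1165 CPM in het and 1051 to 1268 CPM in homo, and the CD8 memory list to 966 to 1123, 1983 to 2940 and 3428 to 3594 CPM, both above WT without overlap. The CD8 naive list was also above WT without overlap, at 2573 to 2817 CPM in WT, 2836 to 3196 CPM in het and 2873 to 3070 CPM in homo. The Treg list of 3 genes lay below WT without overlap, at 141 to 144 CPM in WT, 68.3 to 109 CPM in het and 86.7 to 93.9 CPM in homo. By cell number, CD8 T cells were 38.1% and 41.6% of the T gate in WT libraries, 53.1%, 49.5% and 35.4% in the het libraries and 40.0% and 45.7% in the homo libraries, with overlap. The 35.4% and 40.0% are those of the shallow libraries, and the other Y665F libraries lay above both WT libraries. A cell counts as CD8 only with a Cd8a or Cd8b1 UMI, so this share depends on depth. The part of these lists and shares in the T gate values of Il2rb was not tested.

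In the CD8 gate, T cells with a Cd8a or Cd8b1 UMI and none of Cd4 or Foxp3, Il2rb again rose. It was at 154 and 128 CPM in WT, at 263, 205 and 186 CPM in het, and homo libraries had 289.6 and 265 CPM. Both Y665F groups lay above WT without overlap. Homo lay above het by a narrow margin (265 against 263 CPM), and the share of genes that did so is not given here. Higher than WT without overlap were 17.9% of genes in homo and 9.02% in het. The log2 fold change of Il2rb was 1.03 in homo (SE 0.16, adjusted p = 0.000607) and 0.77 in het (SE 0.14, adjusted p = 0.00602) by edgeR. Between homo and het it was 0.26 (95% interval -0.04 to 0.56, adjusted p = 0.813), so a difference between these genotypes was not detected. Of 48 tests of a member between homo and het in all gates, 0 passed by edgeR. Called in that comparison were 0.0105% of genes in the CD8 gate, 0.125% in the CD4 gate and 0% in the others. At an unadjusted p under 0.05 were 3 of the 48, and no share of genes at that level is given here. In the CD8 gate 1.66% of 9495 genes were called in homo and 0.853% in het, against 1 of 7 members in each.

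The Il2rb call of the CD8 gate was made in 16 of 19 alternative settings in homo and 15 of 19 in het. With each cell thinned to 300 UMIs, which left 978 genes tested, it was lost in homo (1.58, adjusted p = 0.417) and in het (1.61, adjusted p = 0.740). Cells were gated again after this thinning, which left 108 to 250 CD8 cells a library. The homo call was also lost without WT replicate 2 (0.84, adjusted p = 0.0676) and without homo replicate 2 (1.04, adjusted p = 0.0602). The het call was also lost without WT replicate 2 (0.59, adjusted p = 0.471) and without het replicate 1 (0.56, adjusted p = 0.183), and DESeq2 did not make it (0.72, adjusted p = 0.0915). Over 19 alternative settings the homo value ran from 0.84 to 1.58 (adjusted p up to 0.417) and the het value from 0.56 to 1.61 (adjusted p up to 0.740). With both shallow libraries left out, Il2rb was called in the CD8 gate at 1.02 in homo and 0.83 in het, and in the T gate at 0.86 and 0.72.

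**Figure D2:**
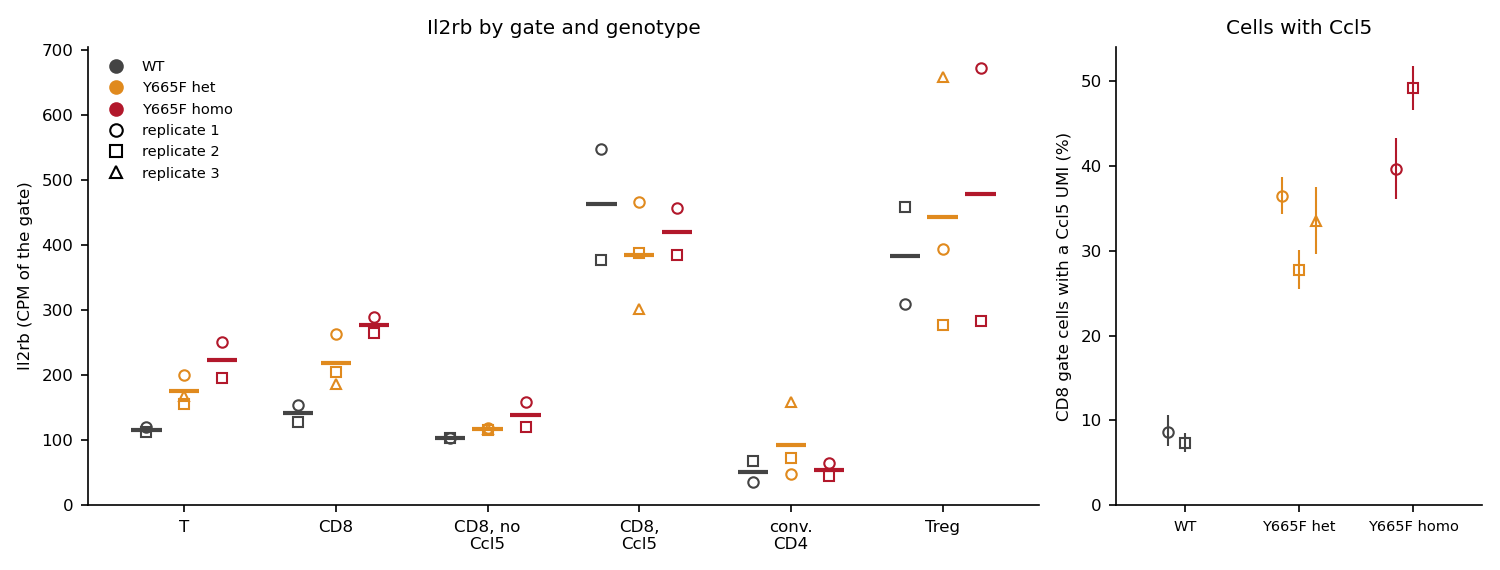
Il2rb (CPM) in the gates of LN, with 1 point per library grouped by genotype (2 WT, 3 Y665F het and 2 Y665F homo libraries) and a line at each group mean, and beside it the share of CD8 gate cells with a Ccl5 UMI in each library (%), with exact 95% binomial intervals. All Y665F libraries lie above both WT libraries in the T and CD8 gates, and the groups overlap in the CD8 gate with Ccl5 and in the CD4 and Treg gates.

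CD8 T cells were then divided by Ccl5, a chemokine that memory CD8 T cells are known to make. Cells with at least 1 Ccl5 UMI were 8.66% and 7.37% of the CD8 gate in WT libraries, 36.5%, 27.7% and 33.5% in the het libraries and 39.7% and 49.2% in the homo libraries. With each cell thinned to 300 UMIs WT libraries had 3.77% and 3.34%, het libraries 18.0%, 13.8% and 23.96%, and homo libraries 30.4% and 33.1%, which kept the order WT, het, homo without overlap. For these shares the cells were gated before thinning, unlike in the tests. Thinning then left out 10 CD8 cells of het replicate 3 and 19 of homo replicate 1, which were shallower. In B cells, which are not known to make Ccl5, the thinned share was 0% to 2.08% and the unthinned share 0.152% to 1.49%, at median depths of 300 to 1941 UMIs against 526 to 3925 UMIs in the CD8 gate. CD8 T cells with Ccl5 gave 22.6% and 14.0% of the T gate's Il2rb UMIs in WT libraries, 56.6%, 45.7% and 26.8% in the het libraries and 36.2% and 59.3% in the homo libraries. The CD8 memory list of 7 genes, which leaves out Il2rb, summed in the CD8 gate to 1707 to 2005 CPM in WT, 3157 to 4175 CPM in het and 4878 to 5361 CPM in homo.

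Within CD8 T cells with Ccl5, the genotypes overlapped in Il2rb. It was at 548 and 378 CPM in WT, at 466, 388 and 301 CPM in het, and homo libraries had 456 and 385 CPM, with a WT library highest. Against WT the log2 fold change was -0.10 in homo (95% interval -0.50 to 0.30, adjusted p = 0.941) and -0.07 in het (95% interval -0.44 to 0.29, adjusted p = 0.995) by edgeR. Here 0 of 5 tested members were called in homo and in het, against 0.0608% and 0.0203% of 4936 genes, and 0 were called by DESeq2. At an unadjusted p under 0.05 by edgeR was 1 member in each, beside 356 of all genes in homo and 247 in het. The memory list in these cells summed to 5400 to 5596 CPM in WT, 6152 to 8236 CPM in het and 8081 to 8424 CPM in homo.

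Within CD8 T cells without Ccl5, Il2rb was at 103 and 104 CPM in WT, at 119, 116 and 117 CPM in het, and homo libraries had 159 and 119.7 CPM. All Y665F libraries were above WT, but the difference did not pass. Its log2 fold change was 0.37 in homo (95% interval 0.03 to 0.70, unadjusted p = 0.0356, adjusted p = 0.530) and 0.23 in het (adjusted p = 0.877) by edgeR. Groups without overlap on the higher side were found for 18.0% of genes in homo and 7.97% in het. Of 5 tested members 0 were called, against 0.25% of 8416 genes in homo and 0.0832% in het, and 0 by DESeq2. At an unadjusted p under 0.05 by edgeR were 3 members in homo and 0 in het, beside 723 and 494 of all genes. The memory list in these cells summed to 1337 to 1540 CPM in WT, 1602 to 1740 CPM in het and 1646 to 2364 CPM in homo. A cell without a Ccl5 UMI in a shallow library may still contain the RNA. How far the larger share of cells with Ccl5 accounts for the Il2rb rise in the undivided gate was not tested, and in sums over cells a change in the share of a cell type and a change of RNA per cell cannot be told apart.

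Conventional CD4 T cells, with Cd4 and without Foxp3, gave no Il2rb call. The level was 34.6 and 67.6 CPM in WT, 47.8, 71.7 and 158 CPM in het and 64.0 and 45.2 CPM in homo, with overlap throughout. The values of het replicate 3 and homo replicate 1 rest on 5 and 2 UMIs. Il2rb had a log2 fold change of -0.27 in homo (95% interval -1.08 to 0.54) and 0.03 in het (95% interval -0.43 to 0.49), with adjusted p of 0.953 and 0.996 by edgeR. The mean CPM was 51.1 in WT, 92.5 in het and 54.6 in homo, so the fit, which weighs libraries by depth, did not follow the means, and under alternatives the fitted value changed sign in 1 of 18 settings in homo and 6 of 18 in het. The difference of the het change between the CD8 and CD4 gates of the same libraries, from a joint fit of both gates, was 0.94 on the log2 scale (SE 0.24, adjusted p = 0.0297), 1 of 28 genes called among 8743 (0.32%). It was 0.00157 without WT replicate 2 and 0.24 without het replicate 1, each with an adjusted p of 1. In homo the difference was 1.37 (SE 0.38, adjusted p = 0.147), with 0.103% of genes called, 1.65 without WT replicate 1 (adjusted p = 0.0477) and 0.43 without WT replicate 2 (adjusted p = 1). Such differences of a member were also tested between Tregs and CD4 T cells, between T and B cells and between CD8 T cells with and without Ccl5. By edgeR 0 of 38 were called, beside 0.0508%, 1.07% and 0% of genes in homo and 0.0169%, 2.46% and 0% in het. An unadjusted p under 0.05 was found for 6 of the 38, and no share of genes at that level is given here.

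In LN Tregs, Il2rb was at 309 and 458 CPM in WT, at 393, 277 and 658 CPM in het, and homo libraries had 673 and 283 CPM, so the groups overlapped. The highest values, of het replicate 3 and homo replicate 1, rest on 6 and 10 UMIs. The fit, which weighs libraries by depth, gave a log2 fold change of -0.20 in homo (SE 0.31, adjusted p = 0.965) and -0.13 in het (SE 0.21, adjusted p = 0.999) by edgeR, while the mean CPM of Il2rb was higher in both than in WT.

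Over the whole library Il2rb rose in homo (log2 fold change 1.21, SE 0.15, adjusted p = 0.00358) and in het (0.95, SE 0.14, adjusted p = 0.0163) by edgeR, where 4.6% and 1.65% of 11471 genes were called. WT libraries had 77.1 and 88.7 CPM, het libraries 177, 129.6 and 145, and homo libraries 199 and 164. T cells were 38.4% and 57.0% of kept barcodes in WT and 30.1% to 74.1% in Y665F libraries, where the T, B and NK gates together took 45.3% and 46.0% of barcodes in the shallow ones. Over the whole library the T list of 6 genes summed to 1706 to 2163 CPM in WT, 2414 to 2516 CPM in het and 2496 to 2618 CPM in homo, above WT without overlap. The B list of 8 genes was below WT without overlap, at 2270 to 3785 CPM in WT, 1517 to 1851 CPM in het and 1220 to 1392 CPM in homo. Their part in the whole-library Il2rb values was not tested. The homo value without the shallow libraries was 1.10 (adjusted p = 0.0633) and the het value 0.98 (adjusted p = 0.0730), both short of the threshold. Without WT replicate 1 the het value was 0.87 (adjusted p = 0.0976). In all, the het call of Il2rb over the whole library was made in 11 of 16 alternatives and the homo call in 15 of 16.

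Il7r was lower in CD8 T cells of homo libraries than in WT, short of the threshold. In CD8 T cells with Ccl5 it was at 634 and 660 CPM in WT, at 573, 441 and 309 CPM in het, and homo libraries had 306 and 430 CPM. Both Y665F groups lay below WT without overlap, which 18.8% of genes did in homo and 12.9% in het. The log2 fold change of Il7r was -0.71 in homo (95% interval -1.12 to -0.29, unadjusted p = 0.00142, adjusted p = 0.265 by edgeR) and -0.40 in het (adjusted p = 0.962). The shallow libraries, het replicate 3 and homo replicate 1, held the lowest values of their groups, and without both the homo value was -0.52 (adjusted p = 0.278).

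In CD8 T cells without Ccl5, Il7r was at 369 and 496 CPM in WT, at 473, 351 and 341 CPM in het, and homo libraries had 228 and 311 CPM. Homo lay below WT, and het overlapped WT. Homo also lay below het, for which no share of genes is given here. In homo 21% of genes were lower than WT without overlap. Against WT, homo had a log2 fold change of -0.60 (SE 0.18, adjusted p = 0.204) by edgeR. Il7r was called there without WT replicate 1 (-0.77, adjusted p = 0.0310) and when no filter on low counts was applied (-0.64, adjusted p = 0.0111), and in none of the other 17 alternatives, which ran from -1.004 to -0.27. The CD8 naive list of 6 genes, which leaves out Il7r, summed in these cells to 2538 to 2733 CPM in WT, 2897 to 3149 CPM in het and 3003 to 3217 CPM in homo, so this list was not lower in homo.

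In the T gate as a whole Il7r was at 369 and 479 CPM in WT, at 495, 362 and 290.5 CPM in het, and homo libraries had 292 and 389 CPM, with overlap (log2 fold change in homo -0.22, SE 0.20, adjusted p = 0.632 by edgeR). In the undivided CD8 gate Il7r was at 399.8 and 511 CPM in WT, at 514, 381 and 329 CPM in het, and homo libraries had 262 and 376 CPM (log2 fold change -0.41, SE 0.19, adjusted p = 0.347 by edgeR). Homo was below WT without overlap there, which 24.9% of genes were. In the Treg gate it was at 139 and 222 CPM in WT, at 360, 257 and 110 CPM in het, and homo libraries had 336 and 266 CPM. The het value in Tregs was 0.76 (SE 0.24, unadjusted p = 0.00123, adjusted p = 0.355) and the homo value 0.57 (SE 0.35, adjusted p = 0.808). The 110 CPM of het replicate 3 is a single UMI. Of 6 members tested in Tregs 0 were called in homo and in het by edgeR, against 0.243% and 0.208% of 2885 genes, and 0 by DESeq2. At an unadjusted p under 0.05 by edgeR were 0 members in homo and 1 in het, beside 200 and 126 of all genes.

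**Figure D3:**
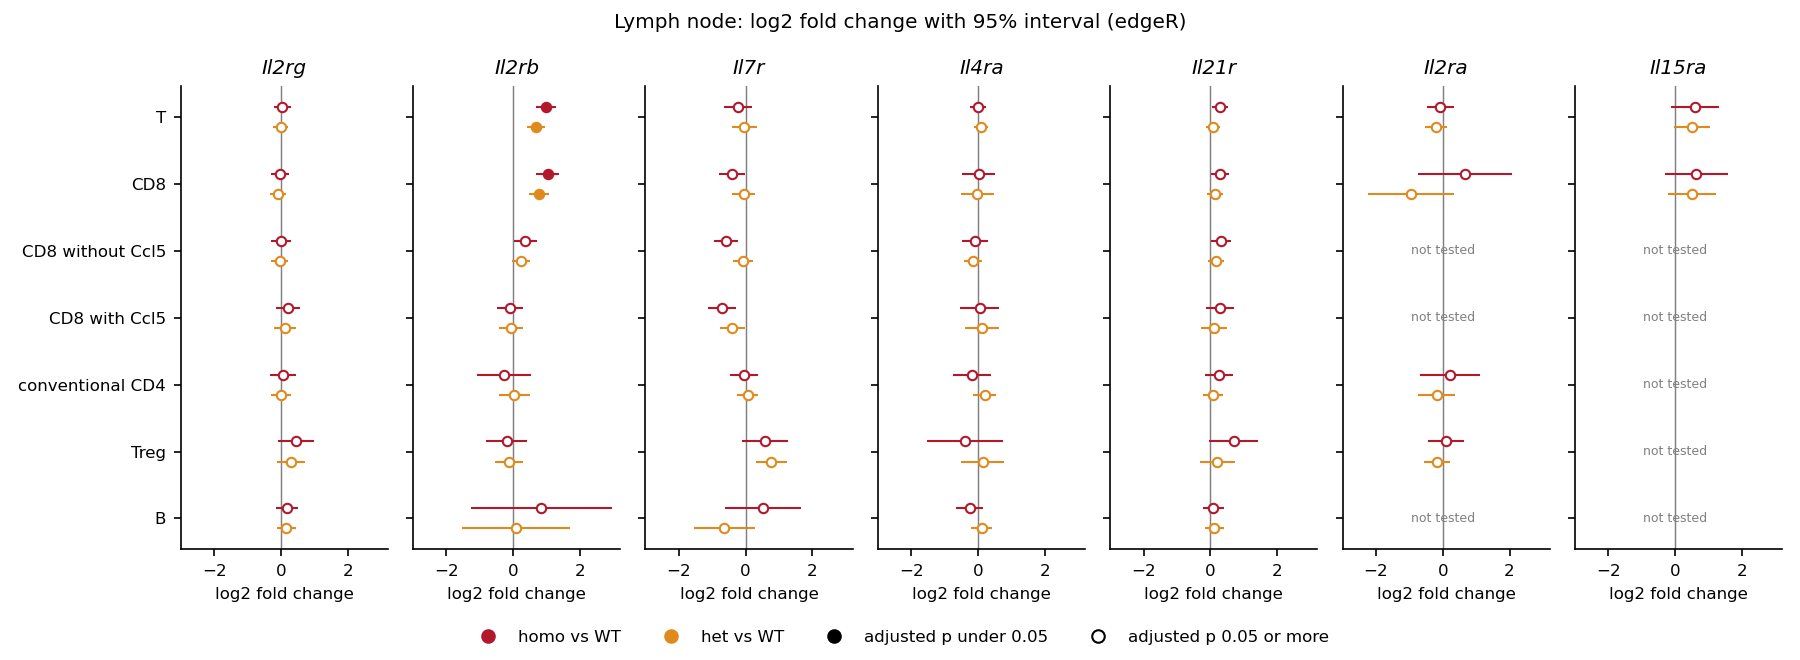
Log2 fold change of each tested member against WT in 7 LN gates for Y665F homo and het, with bars for the 95% interval from edgeR and filled points for adjusted p under 0.05. The filled points are those of Il2rb in the T and CD8 gates, between 0.69 and 1.03.

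The shared chain, Il2rg, was called by edgeR in none of the LN gates in which it was tested. In T cells it was at 592 and 552 CPM in WT, at 554, 549.8 and 519 CPM in het, and homo libraries had 576 and 549 CPM. The groups overlapped, and the log2 fold change was 0.04 in homo (95% interval -0.21 to 0.29) and -0.01 in het (95% interval -0.23 to 0.22). In B cells it was at 412 and 423 CPM in WT, 503, 469 and 423 CPM in het and 542 and 418 CPM in homo (log2 fold change in homo 0.19, 95% interval -0.14 to 0.52). Its level spread more widely in the smaller gates, from 347 to 704 CPM in conventional CD4 T cells and from 471 to 738 CPM in Tregs. Il2rg in Tregs had a log2 fold change of 0.45 in homo (SE 0.27, adjusted p = 0.808) and 0.29 in het (SE 0.21, adjusted p = 0.999) by edgeR, where het replicate 3 and homo replicate 1 rest on 5 and 9 UMIs. Without homo replicate 2 the homo value was -0.45 (adjusted p = 0.859).

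Il21r in the T gate was at 222 and 232 CPM in WT, at 232, 213 and 251 CPM in het, and homo libraries had 262 and 263 CPM. Homo was above WT without overlap, as were 16.7% of genes, and the log2 fold change of 0.28 did not pass (SE 0.11, adjusted p = 0.228 by edgeR). Il4ra in the T gate had a log2 fold change of 0.00 in homo (95% interval -0.25 to 0.25), with 85.0 and 98.6 CPM in WT and 84.6 and 89.4 CPM in homo. In B cells, where IL-4 is known to drive class switching, Il4ra was at 117 and 118 CPM in WT, at 140.2, 119.6 and 110.2 CPM in het, and homo libraries had 85.4 and 103 CPM. Homo lay below WT there, which 21.4% of genes did, with a log2 fold change of -0.25 (95% interval -0.65 to 0.14, adjusted p = 0.787 by edgeR). In B cells 0 of 5 tested members were called in either genotype, against 0% of 9116 genes in homo and 0.0219% in het, with 0 members at an unadjusted p under 0.05 and 0 by DESeq2.

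A difference of Il2ra between genotypes was not detected in LN. In the T gate it was at 41.5 and 37.3 CPM in WT, at 37.3, 26.0 and 24.4 CPM in het, and homo libraries had 33.0 and 35.4 CPM. The Treg list was lower in the T gate of every Y665F library than in WT. By cell number, Tregs in het overlapped WT (1.01% to 5.14% against 3.33% and 3.73% of the T gate). In homo their share lay below WT (1.41% and 3.05%), the lower value being that of the shallow homo library. A cell counts as a Treg only with a Foxp3 UMI, so this share depends on depth. Cells were also thinned to the same number of UMIs and gated again. The Treg share was then 2.23% and 1.11% in WT and 1.06% and 1.18% in homo, with overlap. A lower Treg share in homo was thus not seen at equal depth. The part of the list and the shares in these T gate levels was not tested. In the Treg gate, where Il2ra is highest, it was at 549 and 436 CPM in WT, at 443, 364 and 658 CPM in het, and homo libraries had 336 and 532 CPM, with overlap. In Tregs its log2 fold change was 0.11 in homo (95% interval -0.43 to 0.65), where the mean CPM was lower than in WT (434 against 492) and 7 of 18 alternatives gave the other sign, and -0.16 in het (95% interval -0.56 to 0.23). In conventional CD4 T cells it was 0.22 in homo (95% interval -0.67 to 1.11). In the CD8 gate Il2ra was at 0 and 5.77 CPM in WT, at 2.42, 1.19 and 0 CPM in het, and homo libraries had 9.12 and 5.45 CPM, on at most 20 UMIs a library.

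Il15ra was scarce, with 4 to 108 UMIs a library in the T gate. It was at 6.21 and 5.004 CPM in WT, at 8.08, 6.20 and 4.88 CPM in het, and homo libraries had 9.28 and 7.22 CPM. Its log2 fold change was 0.60 in homo (95% interval -0.11 to 1.30, adjusted p = 0.403) and 0.50 in het (95% interval -0.05 to 1.04, adjusted p = 0.507) by edgeR. Il15ra was tested in the T and CD8 gates and the whole library, and passed the filter on low counts in no other gate. In conventional CD4 T cells 0 of 6 tested members were called in homo or het by edgeR, against 0.483% and 0.421% of 6417 genes, with 0 at an unadjusted p under 0.05 and 0 by DESeq2.

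The wider pathway was described with a list of 22 genes for ligands, 3 other chains of the family, kinases, STATs and feedback inhibitors. In the T gate 12 of the 22 were tested, 0 rose, and Stat5b was the 1 that fell in het, beside 1.09% of all genes called in het and 2.88% in homo. At an unadjusted p under 0.05 by edgeR there were 4 of the 12 in each genotype, beside 1642 of all 10325 genes in homo and 1170 in het. None of the 8 ligands passed the filter there. Stat5b was at 102 and 112 CPM in WT, at 74.9, 72.3 and 63.5 CPM in het, and homo libraries had 81.5 and 79.5 CPM, with both Y665F groups below WT without overlap, which 22.6% of genes were in het and 30.8% in homo. The log2 fold change of Stat5b was -0.50 in het (SE 0.10, adjusted p = 0.0167) and -0.35 in homo (SE 0.12, adjusted p = 0.130) by edgeR. The 7 kinase and STAT genes all had a log2 fold change below 0 in the T gate, with a median of -0.25 in het and -0.32 in homo, beside a median near 0 for all genes (-0.01 in each).

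Of the feedback inhibitors, Socs2 in the T gate had a log2 fold change of 1.22 in homo (SE 0.33, adjusted p = 0.0624) and 0.56 in het (SE 0.28, adjusted p = 0.484), short of the threshold by edgeR. Cish, a direct STAT5 target, had values of -0.02 in homo and 0.22 in het. In the CD8 gate 11 pathway genes were tested and 0 were called in homo or het by edgeR, beside 1.66% and 0.853% of all genes called. At an unadjusted p under 0.05 there were 4 and 3, beside 1302 and 867 of all 9495 genes. In Tregs 11 were tested and 0 were called, beside 0.243% of all genes called in homo and 0.208% in het. At an unadjusted p under 0.05 by edgeR there were 3 in each genotype, beside 200 of all 2885 genes in homo and 126 in het. In conventional CD4 T cells 11 were tested and 1 was called, Socs3 in het (log2 fold change -1.04, SE 0.22, adjusted p = 0.00390), although its mean CPM was 94.1 in het and 90.2 in WT. Of all genes 0.421% were called in that comparison by edgeR and 0 by DESeq2, so DESeq2 did not make the Socs3 call. Socs3 is better known as a brake on STAT3 signals. WT libraries had 42.6 and 138 CPM of it, het libraries 50.5, 42.3 and 189, and homo libraries 160.0 and 55.9, so the groups overlapped.

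The spleen comparison adds Y665H and has 1 library per genotype. It has no replicate check and no test, and intervals are exact 95% intervals for counting error only. A difference is counted when the ratio of CPM to WT passes 1.5-fold either way and the gene has at least 50 UMIs over the 3 libraries. The median log2 ratio of all genes was -0.16 in the T gate of Y665F and 0.01 in Y665H, so ratios of Y665F are read against a general shift below 1. The neutrophil list of 7 genes summed in the T gate to 40.7 CPM in WT, 417 in Y665H and 332 in Y665F, and over the whole library to 1499, 13400 and 27759 CPM. Its part in the ratios was not tested.

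In spleen T cells, Il2rb and Il2ra were higher in the Y665F library than in WT and the other 5 members were within 1.5-fold. Il2rb was at 139 CPM in WT, 133 in Y665H and 324 in Y665F, a ratio of 2.33 (2.25 to 2.42) for Y665F and 0.96 (0.92 to 1.004) for Y665H. Il2ra was at 32.9 CPM in WT, 23.6 in Y665H and 58.1 in Y665F, a ratio of 1.77 (1.63 to 1.92) for Y665F and 0.72 (0.65 to 0.80) for Y665H. Of all genes 15.3% passed 1.5-fold in Y665F (4.56% higher, 10.7% lower) and 6.69% in Y665H (4.47% higher, 2.23% lower), against 2 and 0 of 7 members. CD8 T cells were 40.6% of the T gate in WT, 33.9% in Y665H and 53.8% in Y665F, and the CD8 memory list summed there to 1631 CPM in WT, 1287 in Y665H and 4305 in Y665F. Tregs were 5.03% of T cells in WT, 4.76% in Y665H and 8.92% in Y665F, and held 55.3%, 50.3% and 60.8% of the T gate's Il2ra UMIs. The part of these shifts in the T gate ratios was not tested. Over the whole spleen library Il2ra was at 24.7 CPM in WT, 15.01 in Y665H and 44.8 in Y665F, past 1.5-fold lower in Y665H (ratio 0.61, 0.55 to 0.67) and higher in Y665F (1.81, 1.67 to 1.96). Il2rb was past it in Y665F (1.89, 1.83 to 1.95), and the other members were within, beside 3.28% of genes lower in Y665H and 8.06% higher in Y665F. T cells were 64.1% of kept barcodes in WT, 52.2% in Y665H and 70.7% in Y665F. Their part in the whole-library ratios was not tested.

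**Figure D4:**
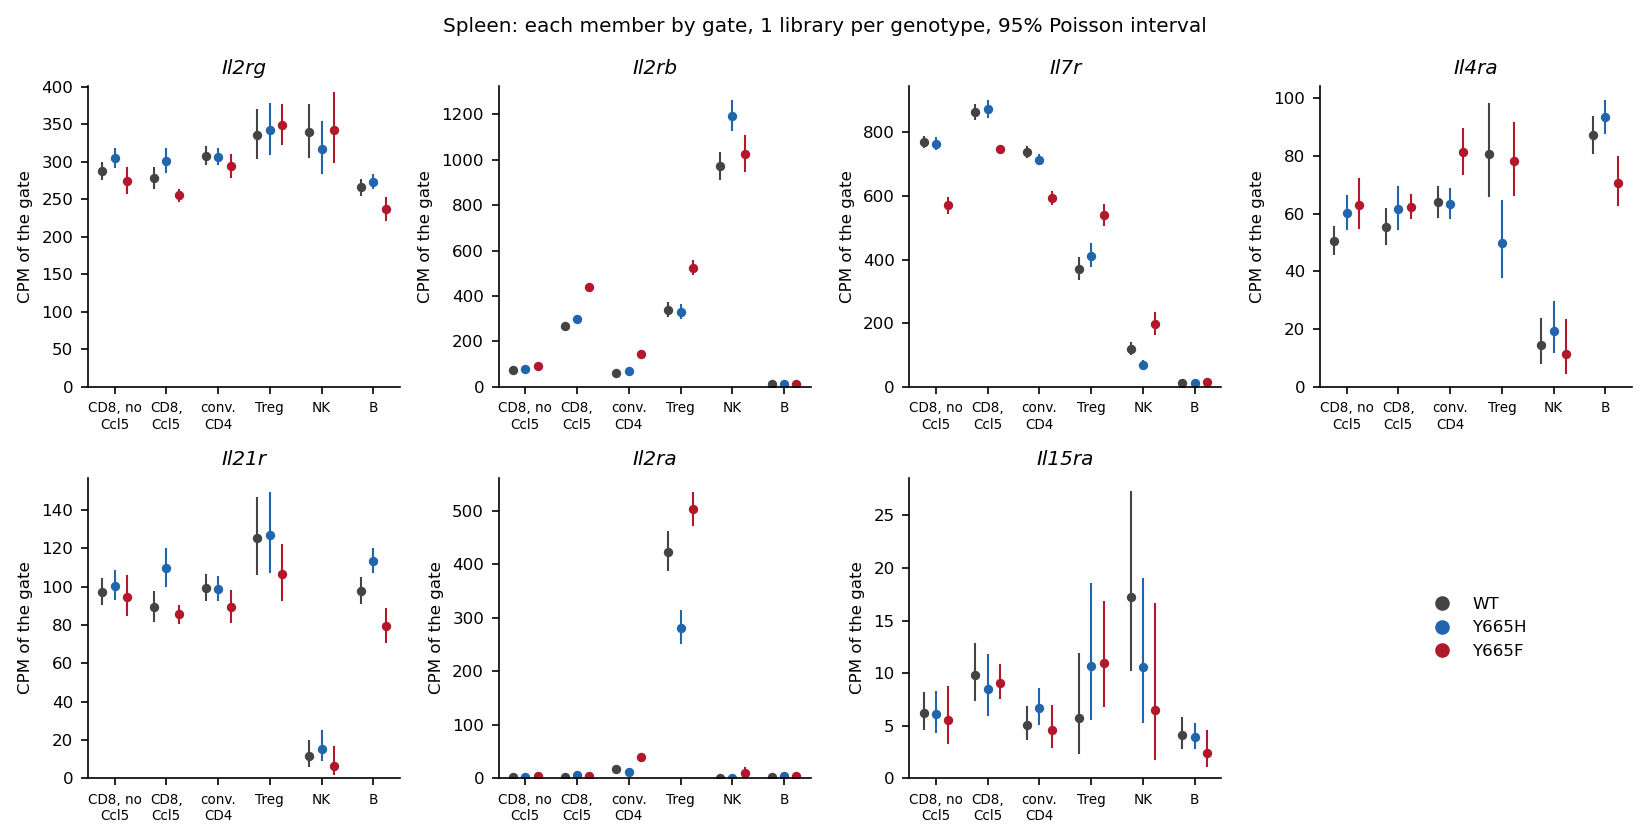
Level of each member (CPM of the gate, linear axis from 0) in the spleen gates for the WT, Y665H and Y665F libraries (1 library each), with bars for exact 95% Poisson intervals of the count. Il2rb in both CD8 gates and in the CD4 and Treg gates is highest in Y665F, and Il2ra in the Treg gate is lowest in Y665H.

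In the spleen CD8 gate, Il2rb was at 155 CPM in WT, 165 in Y665H and 369 in Y665F (ratio 2.38, 2.26 to 2.51, for Y665F). Cells with a Ccl5 UMI were 37.2% of the gate in WT, 34.3% in Y665H and 77.7% in Y665F, and 13.5%, 13.0% and 44.8% when each cell was thinned to 300 UMIs. In B cells the shares were 13.6%, 11.6% and 17.0%, or 1.74%, 1.38% and 1.60% thinned, at median depths of 3924, 3930 and 3842 UMIs against 6847, 6979 and 8703 in the CD8 gate. The memory list summed in the CD8 gate to 2632 CPM in WT, 2406 in Y665H and 6377 in Y665F. Within cells with Ccl5, Il2rb was at 269 CPM in WT, 297 in Y665H and 438 in Y665F (ratio 1.62, 1.53 to 1.72, for Y665F). Within cells without Ccl5 it was at 75.0, 80.03 and 91.7 CPM (ratio 1.22, 1.06 to 1.41, for Y665F). Il2rb was thus past 1.5-fold in Y665F in the undivided gate and in cells with Ccl5, where 11.6% of genes passed (2.43% higher). The memory list in cells with Ccl5 summed to 5006 CPM in WT, 4569 in Y665H and 7682 in Y665F, and the naive list to 1961, 1740.3 and 1554 CPM, and their part in the Il2rb ratio was not tested. In Y665H, Il2ra was past 1.5-fold higher in these cells (ratio 1.82, 0.94 to 3.62), beside 8.17% of genes (4.06% higher). In the CD8 gate 13.4% of genes passed 1.5-fold in Y665F and 5.58% in Y665H, against 1 of 7 members in each, which in Y665H was Il2ra at 4.09 CPM against 2.72 CPM (ratio 1.51, 0.94 to 2.42). With TMM factors that ratio was 1.49 (0.93 to 2.40), within 1.5-fold.

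Conventional CD4 T cells of spleen had higher Il2rb and Il2ra levels in the Y665F library. Il2rb was at 59.96 CPM in WT, 71.0 in Y665H and 145 in Y665F, a ratio of 2.41 (2.14 to 2.72) for Y665F and 1.18 (1.05 to 1.34) for Y665H. Il2ra was at 18.1 CPM in WT, 12.3 in Y665H and 40.6 in Y665F, a ratio of 2.24 (1.80 to 2.80) for Y665F and 0.68 (0.53 to 0.88) for Y665H. Of all genes 3.44% were past 1.5-fold higher in Y665F, against 2 of 7 members. In this gate, which leaves out cells with a Foxp3 UMI, the Treg list of 3 genes summed to 94.9 CPM in WT, 118 in Y665H and 200.4 in Y665F, and the CD8 memory list to 310.4, 305 and 471 CPM. Their part in these ratios was not tested. Il4ra was at 63.9, 63.3 and 81.2 CPM (ratio 1.27, 1.11 to 1.45, for Y665F).

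In spleen Tregs, Il2rb was higher in the Y665F library than in WT, and Il2ra and Il4ra were lower in the Y665H library. Il2ra in this gate was at 424 CPM in WT, 281 in Y665H and 503 in Y665F, a ratio of 0.66 (0.58 to 0.77) for Y665H and 1.19 (1.07 to 1.32) for Y665F. Il2rb was at 339 CPM in WT, 330.3 in Y665H and 523 in Y665F (ratio 1.54, 1.38 to 1.74, for Y665F). Il4ra was at 80.8 CPM in WT, 49.7 in Y665H and 78.1 in Y665F (ratio 0.62, 0.44 to 0.86, for Y665H). Il7r was at 371 CPM in WT, 413 in Y665H and 539 in Y665F (ratio 1.45, 1.30 to 1.63, for Y665F). In Y665H Il2ra and Il4ra were thus past 1.5-fold lower, beside 4.46% of all genes, and in Y665F Il2rb was past it on the higher side, beside 5.4%. Without the top 2% of cells by UMIs Il2ra was within 1.5-fold in Y665H (ratio 0.68, 0.59 to 0.78), and with TMM factors Il7r was past it in Y665F (ratio 1.58, 1.41 to 1.77). The CD8 memory list summed in this gate to 138 CPM in WT, 160 in Y665H and 265 in Y665F. The CD8 naive list summed to 1333, 1270 and 1022 CPM, and the Treg list to 1521, 1781 and 1655 CPM. The part of these lists in the ratios was not tested.

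Il7r in the other spleen T cells was lower in Y665F than in WT by less than 1.5-fold. It was at 770 CPM in WT, 765 in Y665H and 571 in Y665F in CD8 T cells without Ccl5 (ratio 0.74, 0.70 to 0.78, for Y665F). In conventional CD4 T cells it was at 739.6, 715 and 593 CPM (ratio 0.80, 0.77 to 0.84, for Y665F), and in CD8 T cells with Ccl5 at 864, 872 and 747 CPM (ratio 0.87, 0.84 to 0.90, for Y665F). With TMM factors, which take out the general shift, these 3 ratios of Il7r were 0.82, 0.89 and 0.99, and that of Tregs was 1.58.

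NK cells of spleen, gated by Ncr1 and killer receptor genes without a UMI of Cd3d, Cd3e, Cd3g, Trac, Cd8a or Cd8b1, numbered 230, 197 and 130. The T list, of which Trbc1 and Trbc2 were allowed in this gate, summed to 664, 802 and 293 CPM in WT, Y665H and Y665F. Il2rb, through which IL-15 acts on these cells, was at 972 CPM in WT, 1194 in Y665H and 1026 in Y665F, a ratio of 1.23 (1.13 to 1.34) for Y665H and 1.06 (0.95 to 1.17) for Y665F. Il7r was at 119 CPM in WT, 67.6 in Y665H and 197 in Y665F, a ratio of 0.57 (0.42 to 0.77) for Y665H and 1.65 (1.28 to 2.14) for Y665F. With a looser NK gate the Y665F ratio was 1.27. Of the 3 members with enough UMIs, Il7r was the 1 past 1.5-fold in each mutant. It was higher in Y665F, beside 4.85% of genes (18.4% either way), and lower in Y665H, beside 5.68% (10.1% either way).

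B cells of spleen had Il4ra at 87.1 CPM in WT, 93.4 in Y665H and 70.7 in Y665F (ratio 0.81, 0.70 to 0.94, for Y665F). Il21r was at 97.6, 113 and 79.6 CPM, and Il2rg at 266, 274 and 237 CPM. Past 1.5-fold in Y665F were Il2ra at 5.07 against 2.70 CPM (ratio 1.88, 0.96 to 3.67) and Il15ra at 2.40 against 4.12 CPM (ratio 0.58, 0.25 to 1.25), both with intervals that include 1, beside 10.6% of genes. In Y665H 0 members were past 1.5-fold in B cells, beside 4.99% of genes.

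Of the feedback inhibitors in the spleen T gate, Cish, Socs1 and Socs2 were past 1.5-fold higher in Y665F and Socs3 was within (ratio 1.42), while in Y665H Socs3 was higher, Socs2 lower, and Cish (0.88) and Socs1 (1.07) within. Cish was at 5.90 CPM in WT, 8.56 in Y665H and 25.5 in Y665F in CD8 T cells, a ratio of 4.32 (3.38 to 5.59) for Y665F. In conventional CD4 T cells Cish was at 20.4, 14.99 and 104 CPM (ratio 5.08, 4.25 to 6.10, for Y665F) and in Tregs at 140.1, 103 and 295 CPM (ratio 2.10, 1.77 to 2.51). Socs2 was at 5.40 CPM in WT, 3.26 in Y665H and 22.8 in Y665F in the T gate, a ratio of 4.22 (3.53 to 5.07) for Y665F and 0.60 (0.46 to 0.79) for Y665H. Socs1 in the T gate had a ratio of 1.99 (1.86 to 2.13) for Y665F. Socs3 was at 29.9 CPM in WT, 47.7 in Y665H and 42.5 in Y665F in the T gate, a ratio of 1.60 (1.46 to 1.74) for Y665H. A stress list of 4 genes (Fos, Jun, Hspa1a and Hspa1b) summed in the same gate to 182 CPM in WT, 281 in Y665H and 154 in Y665F, in conventional CD4 T cells to 205, 314 and 193 CPM, in Tregs to 278, 359.6 and 188 CPM, and over the whole library to 247, 499.9 and 231 CPM. Its part in the Y665H ratios was not tested. Conventional CD4 T cells had Socs3 ratios of 1.69 (1.44 to 1.98) for Y665H and 1.79 (1.49 to 2.14) for Y665F, and in Tregs of 1.87 (1.25 to 2.81) and 2.13 (1.49 to 3.09). Il9r, the chain for IL-9, was at 1.02 CPM in WT, 2.06 in Y665H and 2.21 in Y665F in the T gate, a ratio of 2.01 (1.26 to 3.27) for Y665H and 2.16 (1.36 to 3.49) for Y665F. Il9r ratios in conventional CD4 T cells were 4.15 (1.81 to 11.1) for Y665H and 5.22 (2.16 to 14.5) for Y665F, from 62 UMIs in the 3 libraries. Of the 16 pathway genes with enough UMIs in the T gate, 4 were past 1.5-fold higher and 1 lower in Y665F, and 5 higher and 1 lower in Y665H, beside 4.56% of all genes higher and 10.7% lower in Y665F and 4.47% and 2.23% in Y665H. In Y665H the kinase gene Jak3 was at 20.8 CPM against 12.8 CPM in WT (ratio 1.63, 1.43 to 1.87). Stat5b in the T gate was at 75.6 CPM in WT, 77.2 in Y665H and 52.4 in Y665F, within 1.5-fold of WT in both.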

How the data were processed

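Single-cell RNA libraries of 7 LN and 3 spleen samples were analysed. The authors deposited filtered matrices of UMI counts per gene and barcode, not normalized. Per the labels they were made with Cell Ranger 5.0 on mm10. The file headers give Cell Ranger 5.0.0 for LN and 6.0.0 for spleen. The labels name a 3′ kit (v3.1), and the study's methods a 5′ kit with a 5′ T cell receptor kit. The 7 LN samples have T cell receptor libraries of their own, and the spleen samples do not. The labels and methods thus differ on which transcript end was counted. Whether counting used strand is not given in the sources used here.

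Barcodes under 200 genes or over 10% mitochondrial UMIs were left out, and no doublet caller was run. A cell entered the T or B gate with at least 2 UMIs of its list (6 T genes, 8 B genes) that made up at least 80% of its T, B and myeloid list UMIs. T cells were then divided by Cd8a, Cd8b1, Cd4, Foxp3 and Ccl5. No member is used in a gate. Counts were summed per library and gate, and a library entered the tests of the CD8 subsets with at least 30 cells.

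LN genotypes were tested with edgeR 4.0.16 (quasi-likelihood, TMM factors, filterByExpr, 1 model of 3 genotypes, two-sided, Benjamini-Hochberg over all genes) in R 4.3.3, after the code was tested on simulated data. Differences between gates were tested with an interaction term. DESeq2 1.42.0, other gates, filters and factors, and leaving out libraries were the alternatives. Shares were computed with scipy 1.17.1. CPM is relative to all UMIs of the gate, and intervals cover counting error only.

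Members, lists and tests were chosen with earlier results of these data known. Named are all members, pathway genes called or past 1.5-fold, Stat5b, and the 3 genes most like each member, which for Il15ra are not reported here. In spleen not every such pathway gene is named. Coordinates come from the GENCODE vM21 annotation of GRCm38.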

Additional observations from a re-analysis of the deposited data

Results flagged for a closer look

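The het change of Il2rb differed between the CD8 gate and the conventional CD4 gate of the same LN libraries, by a test of the difference itself. Fitted gate by gate, het against WT was 0.77 on the log2 scale in CD8 and 0.03 in CD4. A separate joint fit of both gates gave a difference of 0.94 (adjusted p = 0.0297 by edgeR's interaction term), with all 3 het libraries above both WT libraries in the CD8 gate and overlap in the CD4 gate. In alternatives chosen after seeing the data, the difference was 0.98 without the shallow libraries (adjusted p = 0.0102), 0.00157 without WT replicate 2 and 0.24 without het replicate 1 (adjusted p of 1 in each). It was called in the other 5 fits that left out 1 library, at 0.94 to 1.22. In the CD8 gate 9.02% of genes were higher in het than in WT without overlap. For homo the difference of Il2rb between the gates was 1.37 and was not called (adjusted p = 0.147 by edgeR's interaction term). The CD4 values of Il2rb in WT rest on 13 and 75 UMIs.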

How the results depend on the processing

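Counts of called members were recomputed under each alternative. Of 96 fold changes of members against WT in LN, 54 changed sign in at least 1 alternative, 0 of them called by edgeR in any setting, among them Il2rb in conventional CD4 T cells and Il2ra in Tregs. The 1 called member, Il2rb, was no longer called (0 members) in the T gate of het, the CD8 gate of homo and the CD8 gate of het after thinning to 300 UMIs, and in the CD8 gate of het with DESeq2. Thinning keeps fewer UMIs in every library, and cells were gated again after it, which left fewer of them in the gates. Leaving out 1 library gave 0 to 1 called members in each of these 3 comparisons, at 0 without WT replicate 2 in all 3, without het replicate 1 in both het ones and without homo replicate 2 in the homo one. The difference of the Il2rb change between CD8 and CD4 ran from 0.00157 to 1.22 in het and from 0.43 to 1.65 in homo. In spleen, members past 1.5-fold were 0 in CD8 of Y665H and 2 in Tregs of Y665F with TMM factors (1 and 1 before), 1 in Tregs of Y665H without the top 2% of cells by UMIs (2 before) and 0 in NK cells of Y665F with a loose gate (1 before). The cause of these was not tested. Same-numbered libraries did not deviate together (correlations of -0.11 to 0.10), so the replicate number was not read as a pairing. With the replicate block the counts of called members in the T, CD8, CD4, Treg and B gates were unchanged, and Il2rb over the whole library in het was 0.96 (adjusted p = 0.0890). Depth limits Il2ra in CD8 cells, Il15ra and all NK values in LN, which rest on few UMIs.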
